A study of Homo sapiens with 79 samples.

Results

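RNA recovered with STAG2 was compared with input RNA in K562 cells, an established human leukemia cell line of erythroid character. In formaldehyde RNA immunoprecipitation sequencing (fRIP-Seq), a light cross-link is made in living cells, an antibody then captures a chosen protein from the sonicated lysate, and the RNA that comes with it is sequenced. STAG2 fRIP comprised 2 of the 79 libraries of the series, chosen by their labels, and both were compared with the 3 libraries of input set 1. The series held 70 fRIP libraries of 24 proteins and 9 input libraries in 3 sets. Every group shared the same untreated cells at low passage and the same fixation in 0.1% formaldehyde. The STAG2 libraries used 1 commercial antibody of a single lot, and input RNA was the lysate taken before any antibody was added. Repeats of a fRIP came from separate lysates prepared on separate dates, and the study used STAG2 as a control for background RNA. The labels number the STAG2 libraries 1 and 3 while the table of values numbers its columns otherwise, so the libraries are called STAG2 replicate 1 and the second STAG2 library here. No label ties STAG2 to an input set. The input value that the authors tabulated beside STAG2 lay closest to input set 1, with a median absolute log2 difference of 0.0682 across 25442 genes against 0.258 and 0.265 for sets 2 and 3, and all 9 input libraries were used as a check.

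STAG2 is the subunit that, in place of its paralog STAG1, completes the cohesin ring built from SMC1A, SMC3 and RAD21. Cohesin is loaded by NIPBL and MAU2, holds sister chromatids together until separase (ESPL1) opens the ring at anaphase, and extrudes chromatin loops that stop at CTCF sites. It is best known for this work on DNA, and each RNA below is described only by its recovery with the STAG2 antibody relative to the lysate.

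Both STAG2 libraries stood apart from the rest of the series in how many genes they detected. Replicate 1 had 32319 of 48453 genes above 0, the highest of the 79 libraries, and the second library had 21067, the lowest. The other 77 libraries ranged from 22575 to 31084, with a median of 26378. The difference lay in genes at very low level. Of 13538 genes at 0 in input sets 2 and 3, 4369 (32.3%) were above 0 in replicate 1 and 117 (0.864%) in the second library, while 0.502% were above 0 in all 3 libraries of input set 1. Those 4369 genes had a median of 0.415 FPKM (fragments per kilobase of transcript and per M (mega) of mapped fragments) in replicate 1, and 82.4% were under 1 FPKM. Olfactory receptor genes, most of which serve smell in the nose, showed the same split, with 259 of 396 above 0 in replicate 1 and 43 in the second library against 38 to 165 (median 69) in the other 77. At 5 FPKM or more in input sets 2 and 3, both libraries detected 99.0% of 10467 genes. Depth was recovered from the smallest FPKM that genes of a given length can take, which is the worth of a single fragment. It came to 8.96 and 9.80 M fragments in the STAG2 libraries and 20.8 to 22.7 M in input set 1, and in these 5 libraries 90.1 to 91.6% of low values were whole numbers of fragments to within 0.15. All 12 K562 markers measured, among them GATA1, TAL1, TFRC and HBG2, were at 1 FPKM or more in both STAG2 libraries. Replicate 1 of input set 1 had lower globins than the other 2 libraries of its set, with HBG2 at 178 FPKM against 901 and 944. Of 11 markers of other cell types, 6 and 3 were at 1 FPKM or more in the STAG2 libraries and 2 or 3 in each input library, and their sum was 22.3 and 22.6 FPKM against 7.84 to 9.87, of which the collagen gene COL1A2 made up 8.65 and 18.2.

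**Figure D1:**
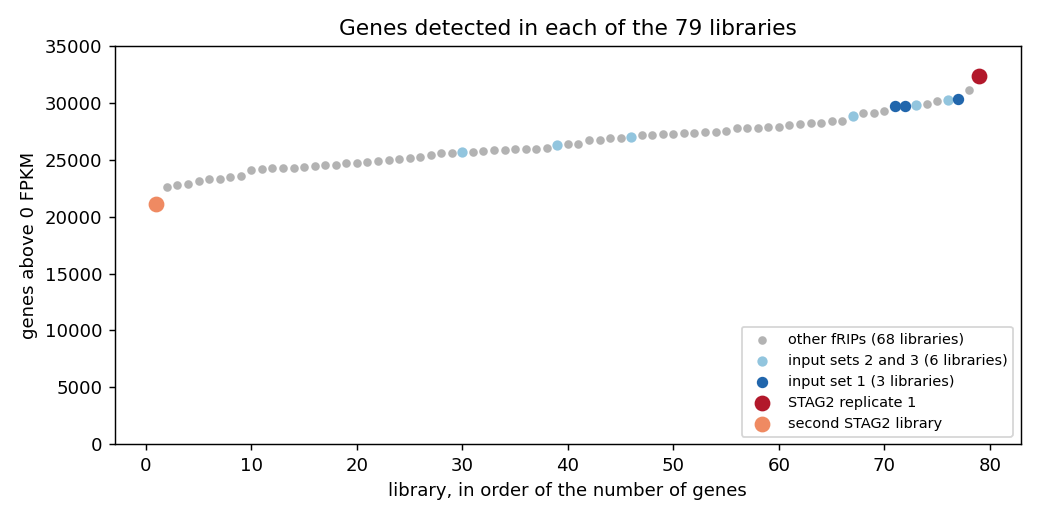
Number of genes above 0 FPKM (y axis) in each of the 79 libraries, set in order of that number (x axis), with 1 point per library and separate colours for the STAG2 libraries, input set 1, input sets 2 and 3 and the other fRIPs. The second STAG2 library is the first point, at 21067 genes, and STAG2 replicate 1 the last, at 32319.

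Of 25442 genes tested on log2(FPKM + 1), 268 (1.05%) were enriched in STAG2 fRIP and 1338 (5.26%) depleted, by over 2-fold with a limma adjusted p under 0.05. With each library centred on its own median, which moved the median gene by 0.25 on the log2 scale, the counts became 907 and 749, so that the enriched share of all calls went from 16.7 to 54.8%. Values below are not centred, and a member's change is read against that shift. Both STAG2 libraries lay above all 3 libraries of input set 1 for 4700 genes (18.5%) and below all 3 for 6987 (27.5%). Of the 268 enriched genes, 222 had no overlap between the groups and 46 did, and of the 1338 depleted genes, 1316 had none.

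**Figure D2:**
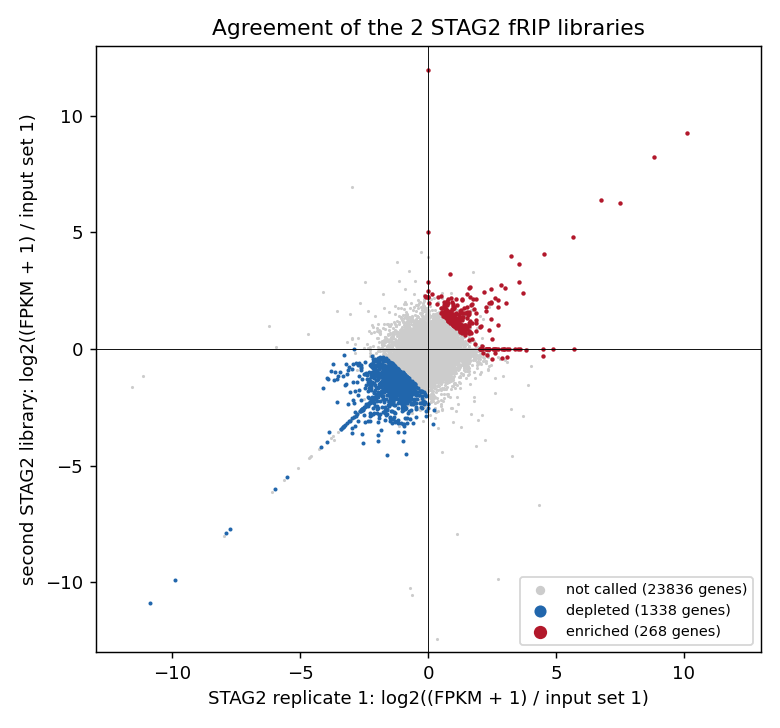
Log2 fold change over the mean of input set 1 in STAG2 replicate 1 (x axis) and in the second STAG2 library (y axis), with 1 point per gene tested and the 268 enriched and 1338 depleted genes coloured. The enriched genes farthest from the origin lie near the diagonal, while some enriched genes lie along an axis, with a change in 1 library alone.

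Most calls were of a moderate size. Between 2- and 10-fold and without overlap, 214 genes were enriched, 197 of them under 4-fold, and 1302 were depleted, 1137 of them under 4-fold. The 214 comprised 121 mRNA genes, 49 pseudogenes and 32 lncRNA genes, while the 1302 comprised 217 mRNA genes, 546 pseudogenes and 436 lncRNA genes. The enriched genes had a median of 1.28 FPKM in input set 1 and the depleted genes 4.12 FPKM, so many of these calls were of genes at low level, where few fragments were counted. Against all 9 inputs, 125 of the 214 and 649 of the 1302 were still called. Without STAG2 replicate 1, 155 and 878 were still called, and without the second library 101 and 750. At 10 FPKM or more in input sets 2 and 3, 63 genes remained among the enriched, 58 of them mRNAs, and 13 of these 63 were also called against all 9 inputs. Another 1136 genes were higher and 1100 lower with a limma adjusted p under 0.05, no overlap and a change under 2-fold.

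The 13 mRNAs that passed both comparisons at that level are described first. IMMT, the core subunit of the complex that shapes the cristae of mitochondria, had the largest change (chromosome 2, 86371055 to 86422595, minus strand, in GENCODE coordinates on hg19). It stood at 784 and 489 FPKM in the STAG2 libraries and 60.1, 66.5 and 68.9 FPKM in input set 1. Both STAG2 libraries lay far above the inputs, the log2 fold change was 3.23 (SE 0.15, limma adjusted p = 5.40e-25), and the highest mean among the other 23 fRIPs was 111 FPKM, in PCAF fRIP.

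KIAA1731, now named CEP295, is needed to turn a new centriole into a centrosome (chromosome 11, 93394848 to 93463524, plus strand). Its values were 273 and 207 FPKM in the STAG2 libraries and 34.3, 31.4 and 32.4 FPKM in input set 1, with a log2 fold change of 2.83 (SE 0.15, limma adjusted p = 1.01e-22). CEP350, a large protein of the centrosome that anchors microtubules (chromosome 1, 179923809 to 180084015, plus strand), had 344 and 325 FPKM in the STAG2 libraries and 49.2, 44.1 and 48.1 FPKM in input set 1. Neither gene overlapped between the groups, and CEP350 had a log2 fold change of 2.80 (SE 0.14, limma adjusted p = 9.79e-23). SUZ12 fRIP had the highest mean of the other fRIPs for both, at 124 and 149.8 FPKM, below either STAG2 library.

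CCDC18, which encodes a coiled-coil protein (chromosome 1, 93645476 to 93744287, plus strand), had 250.2 and 159 FPKM in the STAG2 libraries and 36.9, 36.4 and 35.8 FPKM in input set 1 and a log2 fold change of 2.42 (SE 0.16, limma adjusted p = 2.18e-18). CSPP1, whose protein works at centrosomes and cilia, had 134 and 99.6 FPKM in the STAG2 libraries and 20.8, 20.2 and 21.7 FPKM in input set 1 and a log2 fold change of 2.41 (SE 0.18, limma adjusted p = 1.48e-15). In both genes the STAG2 libraries lay far above every input of set 1, but recovery was not the highest in the series. SUZ12 fRIP had a mean of 319 FPKM for CCDC18, above both STAG2 libraries, and 122 FPKM for CSPP1, between them.

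An enzyme and a carrier of lipid metabolism followed. LPIN2, a phosphatidate phosphatase of the lipin family (chromosome 18, 2885294 to 3013142, minus strand), had 112 and 80 FPKM in the STAG2 libraries and 19.4, 20 and 19.8 FPKM in input set 1. Its inputs spanned less than 1 FPKM, and the log2 fold change was 2.21 (SE 0.15, limma adjusted p = 7.18e-18). COL4A3BP, the ceramide transfer protein now named CERT1 (chromosome 5, 74652170 to 74807963, minus strand), had 101 and 75.8 FPKM in the STAG2 libraries and 17.7, 17.7 and 20.1 FPKM in input set 1 and a log2 fold change of 2.18 (SE 0.15, limma adjusted p = 1.10e-17). No other fRIP mean reached the lower STAG2 library in either gene. The 2 other lipins, named after their values were seen, were also higher without overlap. Both STAG2 libraries lay above every input of set 1 for 28.4% of all mRNA genes tested. The lack of overlap is thus not read as a trait of the lipin family. LPIN3 was called. It had 19.6 and 15.5 FPKM in the STAG2 libraries and 8.85, 7.15 and 6.6 FPKM in input set 1 and a log2 fold change of 1.12 (SE 0.22, limma adjusted p = 2.21e-04), but at 0.96 (limma adjusted p = 0.015) without STAG2 replicate 1 it fell short of 2-fold, while LPIN1 lay at that limit, with 57.8 and 64.5 FPKM in the STAG2 libraries and 35.3, 29 and 26.5 FPKM in input set 1 and a log2 fold change of 1.00 (SE 0.23, limma adjusted p = 0.0014).

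CCP110, which caps centrioles and holds back cilium growth (chromosome 16, 19535133 to 19564730, plus strand), was higher in the second library than in replicate 1. It had 59.5 and 72.3 FPKM in the STAG2 libraries and 16.9, 15.1 and 14.5 FPKM in input set 1, and a log2 fold change of 2.02 (SE 0.14, limma adjusted p = 9.87e-17). The other fRIPs reached 26.6 FPKM at most. OFD1, a protein of the centriole and of the satellites around it, had 47.2 and 59.7 FPKM in the STAG2 libraries and 20.9, 24.1 and 25.7 FPKM in input set 1. Its log2 fold change was 1.14 (SE 0.19, limma adjusted p = 1.68e-05), and 0.97 without the second STAG2 library. SUZ12 fRIP had a mean of 120 FPKM for OFD1, above both STAG2 libraries.

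The remaining 4 of the 13 were singled out after their values were seen. AZI1, the centriolar satellite protein now named CEP131, had 36.9 and 26.2 FPKM in the STAG2 libraries and 12.3, 10.5 and 11.6 FPKM in input set 1 and a log2 fold change of 1.37 (SE 0.26, limma adjusted p = 1.74e-04). USP33, a deubiquitinase, had 141 and 150.0 FPKM in the STAG2 libraries and 68.7, 66 and 61 FPKM in input set 1 and a log2 fold change of 1.14 (SE 0.13, limma adjusted p = 8.23e-09). XPO5, the export receptor that carries precursor miRNAs out of the nucleus, had 183 and 216 FPKM in the STAG2 libraries and 88.9, 101 and 97.3 FPKM in input set 1 and a log2 fold change of 1.05 (SE 0.12, limma adjusted p = 1.42e-09), and fell just short of 2-fold without the second STAG2 library, at 0.93 (limma adjusted p = 4.91e-06), or without replicate 1 of input set 1, at 0.99 (limma adjusted p = 1.19e-07). In these 3 genes the groups did not overlap, and the mean in CBP (AZI1) or SUZ12 fRIP (USP33 and XPO5) was above both STAG2 libraries. WDR74, a factor of ribosome assembly, had 1632 and 1444 FPKM in the STAG2 libraries and 638, 715 and 723 FPKM in input set 1 and a log2 fold change of 1.15 (SE 0.26, limma adjusted p = 0.0012). Nearly all of this level was assigned to 1 short coding isoform, ENST00000538098, with 1591 and 1388 FPKM in the STAG2 libraries and 605, 674 and 681 FPKM in input set 1, while the longer coding isoform ENST00000311713 had 11.2 and 15 FPKM in the STAG2 libraries and 8.85, 10.4 and 10.8 FPKM in input set 1 and did not pass, at 0.35 (SE 0.55, limma adjusted p = 0.803). The gene of the U2 spliceosomal RNA copy RNU2-2P (chromosome 11, 62609091 to 62609281) lies on the same strand inside WDR74 (chromosome 11, 62599814 to 62609281), so fragments of these 2 genes cannot be told apart here.

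A set of intronless nuclear copies of the mitochondrial 16S rRNA gene was examined next. These MTRNR2L genes code for peptides like humanin, a short peptide that the mitochondrial gene MT-RNR2 can also encode. The humanin frame of MT-RNR2 and of 3 nuclear copies that the reference annotation places is shown because some fragments could match more than 1 of these similar loci. Positions are on GRCh37 (hg19), written as chrM:2633-2704 (plus strand) for MT-RNR2, chr17:22023388-22023459 (plus) for MTRNR2L1, chr7:142375063-142375134 (plus) for MTRNR2L6 and chr20:55934024-55934095 (minus) for MTRNR2L3. Capitals mark bases that differ from MT-RNR2.
MT-RNR2: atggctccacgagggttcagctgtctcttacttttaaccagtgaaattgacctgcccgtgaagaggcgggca
MTRNR2L1: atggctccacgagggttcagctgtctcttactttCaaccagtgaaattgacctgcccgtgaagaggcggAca
MTRNR2L6: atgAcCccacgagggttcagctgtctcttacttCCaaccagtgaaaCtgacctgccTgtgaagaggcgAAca
MTRNR2L3: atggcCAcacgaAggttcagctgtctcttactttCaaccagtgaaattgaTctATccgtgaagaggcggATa
Over these 72 bases the 3 copies differed from MT-RNR2 at 2, 8 and 9 positions. Over the whole transcript, 0.73, 0.43 and 0% of windows of 50 bases were found unchanged in MT-RNR2, and 16.7, 7.08 and 3.52% had a match to MT-RNR2 with at most 2 mismatches. How fragments matching more than 1 of these loci were assigned is not given in the sources used here, so values of single copies are uncertain.

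Of 13 genes of this family in the table, 7 passed the filter on low values. The filter could be passed through STAG2 fRIP itself, so their values are given as a description, with no test, and the other 6 were not tested. MTRNR2L9 had 5 and 5.46 FPKM in the STAG2 libraries and 0.119, 0 and 0.13 FPKM in input set 1, and MTRNR2L2 had 10.1 and 4.87 FPKM in the STAG2 libraries and 1.31, 0.497 and 0.382 FPKM in input set 1. Their log2 fold changes were 2.53 (SE 0.35) and 2.26 (SE 0.30). MTRNR2L8 had 4.57 and 2.98 FPKM in the STAG2 libraries and 0.117, 0.0857 and 0.254 FPKM in input set 1, with a log2 fold change of 2.03 (SE 0.21). MTRNR2L6 was close to 0 in input, with 2.14 and 2.06 FPKM in the STAG2 libraries and 0, 0.0753 and 0 FPKM in input set 1 and a log2 fold change of 1.60 (SE 0.12). The log2 fold changes of MTRNR2L12 and MTRNR2L1 were larger, at 5.25 and 4.30. In these 6 genes both STAG2 libraries lay above every input of set 1. MTRNR2L3 had 0.9 and 1.25 FPKM in the STAG2 libraries and 0.253, 0.317 and 0.587 FPKM in input set 1, with a log2 fold change of 0.59 (SE 0.23). Phospho-CBX3 fRIP had the highest mean of the other fRIPs for MTRNR2L12, MTRNR2L1, MTRNR2L9, MTRNR2L2 and MTRNR2L6, and stayed below both STAG2 libraries in each. MT-RNR2 itself was not analysed here.

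The other 50 of the 63 genes at 10 FPKM or more were called against input set 1 alone. Their log2 fold changes over set 1 had a median of 1.07 and over all 9 inputs a median of 0.65, from -0.30 to 0.97. They were set apart by missing the call over all 9 inputs, which fixes that upper end. Replication-dependent histone genes, whose mRNAs end in a stem-loop in place of a poly(A) tail, were among them. Of 76 tested, 4 were enriched and 1 depleted over input set 1, beside 1.05 and 5.26% of all genes, and their median went from 0.02 to -0.57 over all 9 inputs. HIST1H2AB had 113 and 168 FPKM in the STAG2 libraries and 30.6, 39.3 and 36.2 FPKM in input set 1, and its log2 fold change of 1.94 (SE 0.45, limma adjusted p = 0.00181) became 0.46 against all 9 inputs. HIST1H2BL went from 1.20 to -0.30 and HIST1H4B from 1.13 to -0.17, so both changed sign. The translation factor EIF2S1 went from 1.17 to 0.48, the chaperonin subunit CCT5 from 1.06 to 0.60 and the proteasome ATPase PSMC2 from 1.07 to 0.54. Each was the single enriched member of its list, of 62 translation factors, 80 chaperones and 46 proteasome genes. The imprinted lncRNA H19 had 34.7 and 24.7 FPKM in the STAG2 libraries and 3.29, 7.03 and 6.68 FPKM in input set 1, and its log2 fold change of 2.24 (SE 0.58, limma adjusted p = 0.00532) became 0.93 against all 9 inputs. Several of these calls also rested on 1 library. Without STAG2 replicate 1, H19 had a log2 fold change of 2.00 (limma adjusted p = 0.064), and without the second STAG2 library HIST1H2AB had 1.65 (limma adjusted p = 0.0515), CCT5 0.86 (limma adjusted p = 0.0526) and EIF2S1 1.01 (limma adjusted p = 0.126). EIF2S1 was also lost without replicate 1 of input set 1, at 0.96 (limma adjusted p = 0.0794). HIST1H2BL was lost without either STAG2 library or that input, at 1.25 (limma adjusted p = 0.0721), 1.15 (limma adjusted p = 0.12) and 1.16 (limma adjusted p = 0.0622). HIST1H4B was lost likewise, at 1.16 (limma adjusted p = 0.0683), 1.11 (limma adjusted p = 0.0968) and 0.99 (limma adjusted p = 0.0806).

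Among enriched mRNAs at lower level, the transcriptional repressor BCL6 had 24 and 32.2 FPKM in the STAG2 libraries and 5.71, 6.41 and 7.13 FPKM in input set 1, with a log2 fold change of 1.96 (SE 0.53, limma adjusted p = 0.0076). ZNF420, a zinc finger protein, had 14.5 and 17.1 FPKM in the STAG2 libraries and 3.48, 3.16 and 5.02 FPKM in input set 1, with a log2 fold change of 1.80 (SE 0.28, limma adjusted p = 4.95e-06). CSRNP1, a nuclear protein induced by AXIN1, had 21.3 and 27.8 FPKM in the STAG2 libraries and 7.02, 8.28 and 9.11 FPKM in input set 1, with a log2 fold change of 1.48 (SE 0.24, limma adjusted p = 1.22e-05). In all 3 genes both STAG2 libraries were at least 2 times the highest input of set 1, and the change over all 9 inputs was as large, at 2.45, 2.05 and 1.49. Their recovery was not particular to STAG2. HNRNPH1 fRIP had a mean of 39.3 FPKM for BCL6, above both STAG2 libraries. HNRNPU fRIP had 16.8 FPKM for ZNF420 and EZH2 fRIP 24.2 FPKM for CSRNP1, each between the 2 STAG2 libraries. The collagen gene COL1A2, which fibroblasts express, had 8.65 and 18.2 FPKM in the STAG2 libraries and 1.85, 2.25 and 2.11 FPKM in input set 1 and a log2 fold change of 2.15 (SE 0.48, limma adjusted p = 0.00118). The call was lost over all 9 inputs, at 1.27 (limma adjusted p = 0.0502), over set 2, at 0.98 (limma adjusted p = 0.212), and over set 3, at 0.68 (limma adjusted p = 0.451). COL1A1, the partner of COL1A2 in type I collagen, did not pass (log2 fold change 0.30, limma adjusted p = 0.545). CD3G of the T cell receptor complex was enriched with 3.16 and 4.22 FPKM in the STAG2 libraries and 0.649, 0.552 and 0.48 FPKM in input set 1, while its partner CD3E was under 0.5 FPKM in all 5 libraries and was not tested. The growth factor gene PDGFB was enriched with 2.74 and 3.5 FPKM in the STAG2 libraries and 0.199, 0.212 and 0.47 FPKM in input set 1. Over input set 2 both calls were lost, at 0.51 (limma adjusted p = 0.565) for CD3G and 0.99 (limma adjusted p = 0.0834) for PDGFB. Without the second STAG2 library, BCL6 had a log2 fold change of 1.76 (limma adjusted p = 0.0876), COL1A2 of 1.66 (limma adjusted p = 0.0681) and CD3G of 1.42 (limma adjusted p = 0.116), so these 3 calls needed it. The summed level of other cell types' markers, given above, was higher in both STAG2 libraries than in input set 1. Without COL1A2 the other 10 markers summed to 13.7 and 4.37 FPKM in the STAG2 libraries and 8.03, 5.59 and 7.2 FPKM in input set 1, so that replicate 1 lay above every input and the second library below. Their part in the result was not tested. In libraries made from many cells, more cells of a type, more RNA per cell and more recovery by the antibody cannot be told apart.

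The genes of cohesin and its regulators were measured in full, with 24 of 24 tested. STAG2 was the one member enriched, and STAG3, a paralog used in meiosis, was depleted at a low level, with 1.32 and 0.456 FPKM in the STAG2 libraries and 3.12, 3.18 and 2.51 FPKM in input set 1, at -1.10 over input set 1, -0.62 over all 9 inputs and -0.76 (limma adjusted p = 0.17) without the second STAG2 library. That call was also lost after centring, at -0.84 (limma adjusted p = 0.0158), and with only the 5 libraries in the fit (limma adjusted p = 0.084). RAD21, the subunit that closes the ring, lay just under the 2-fold limit, with 221 and 253 FPKM in the STAG2 libraries and 112, 121 and 122 FPKM in input set 1 and a log2 fold change of 0.99 (SE 0.20, limma adjusted p = 2.95e-04). The groups did not overlap for RAD21, and its STAG2 libraries exceeded the highest mean among the other fRIPs (203 FPKM, HUR). For SMC3, PLK1 and SMC1A another fRIP had a mean above both STAG2 libraries, at 88.8 FPKM in SUZ12, 106 FPKM in CTCF and 395 FPKM in SUZ12 fRIP. SMC3, which forms the ring with SMC1A, had 52.3 and 57.2 FPKM in the STAG2 libraries and 29.3, 34.9 and 36 FPKM in input set 1 and a log2 fold change of 0.70 (SE 0.18, limma adjusted p = 0.00473). The mitotic kinase PLK1, which helps to release cohesin from chromosome arms, had 78.9 and 98.9 FPKM in the STAG2 libraries and 47.8, 55.4 and 55.1 FPKM in input set 1 and a log2 fold change of 0.74 (SE 0.18, limma adjusted p = 0.00227). SMC1A did not pass, with 126 and 126 FPKM in the STAG2 libraries and 92.1, 91.8 and 101 FPKM in input set 1 and a log2 fold change of 0.41 (SE 0.16, limma adjusted p = 0.0785). STAG1, the paralog of STAG2, was close to its input in both libraries, at 15.8 and 16.5 FPKM in the STAG2 libraries and 14.8, 15.6 and 14 FPKM in input set 1, with a log2 fold change of 0.12 (SE 0.27, limma adjusted p = 0.819). The median over the 24 genes was 0.16, against -0.07 over all genes tested and 0.06 over all mRNA genes. The genes next to STAG2 on chromosome X did not follow it. THOC2 and XIAP had log2 fold changes of 0.11 and -0.06, while TENM1 and GRIA3 were depleted over input set 1, at -1.27 and -1.17, and short of 2-fold over all 9 inputs, at -0.62 and -0.67. Without the second STAG2 library neither passed, at -1.20 (limma adjusted p = 0.0827) and -0.98 (limma adjusted p = 0.0679). GRIA3 was also short of 2-fold after centring, at -0.92 (limma adjusted p = 0.011), and missed the threshold with only the 5 libraries in the fit (limma adjusted p = 0.0679).

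The study drew a centrosome and spindle theme from these samples, so a list of that kind is not independent evidence. Of 80 genes tested, 3 were enriched (CEP350, CCP110 and OFD1) and none depleted. The shares were 0.962 and 1.59% over all mRNA genes and 1.05 and 5.26% over all genes. At a limma adjusted p under 0.05 whatever their size, 12 were higher and 3 lower. This stands beside 1170 and 739 of the 13618 mRNA genes and 1569 and 2461 of the 25442 genes tested. The median was 0.14, against 0.06 over all mRNA genes. Members just below 2-fold included the centrosomal kinase NEK2 at 0.89, the ciliary transition zone gene CEP290 at 0.85, the centriole subdistal protein NIN at 0.78 and the pericentriolar matrix gene CDK5RAP2 at 0.76, each with a limma adjusted p of 2.92e-04, 0.00108, 0.00163 and 8.28e-05. The genes that were lower were POC1B at -0.76, the spindle pole gene ASPM at -0.64 and the centriole assembly gene STIL at -0.49. KIAA1731, CSPP1 and AZI1 are not on that list and were not added to it after their values were seen. Of 40 kinetochore genes and 14 genes of condensin and SMC5/6, none was called. The median of the kinetochore list was 0.24, and its largest change was MAD2L1, a spindle checkpoint gene, at 0.84 (SE 0.19, limma adjusted p = 0.00142). Of 30 kinesin and dynein genes, none was called either. Of 49 genes of DNA replication and repair, 1 was enriched, and of 491 zinc finger genes, 3 were enriched and 6 depleted, beside 131 enriched and 217 depleted of all 13618 mRNA genes. None was called of 9 globin, 25 immediate early, 35 SR and hnRNP and 27 nucleoporin genes. At a limma adjusted p under 0.05 whatever their size, other lists held more higher genes for their number than the centrosome and spindle list. These were 11 of 40 kinetochore, 8 of 35 SR and hnRNP, 16 of 46 proteasome and 19 of 80 chaperone genes. In the same order, 0, 0, 1 and 2 genes of these lists were lower.

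Of 17 golgins, the coiled-coil tethers of the Golgi, GOLGB1 was the one called. GCC1 came next at 0.96 (SE 0.16, limma adjusted p = 1.91e-05), GOLGA2 did not pass at 0.56 (SE 0.21, limma adjusted p = 0.0608), and GOLGA4 was lower at -0.51 (SE 0.18, limma adjusted p = 0.0387). Of 5 RecQ helicases, WRN was the one called, while BLM had 22.4 and 33.2 FPKM in the STAG2 libraries and 32.3, 30.4 and 33.8 FPKM in input set 1 and RECQL 21 and 32.8 FPKM in the STAG2 libraries and 17.5, 17.6 and 18.9 FPKM in input set 1, with log2 fold changes of -0.23 (SE 0.16, limma adjusted p = 0.367) and 0.52 (SE 0.20, limma adjusted p = 0.0678).

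Depleted genes outnumbered enriched genes without centring, and enriched genes outnumbered depleted genes after it, at 907 against 749. Of the 1302 depleted genes under 10-fold, 233 were listed at 0 in both STAG2 libraries. At their depth this says only that no fragment was assigned. SCARNA9, a guide RNA of the Cajal body, had 14.2 and 10.1 FPKM in the STAG2 libraries and 137, 91.4 and 101 FPKM in input set 1 and a log2 fold change of -3.07 (SE 0.37, limma adjusted p = 1.48e-08). It lies at 93454679 to 93455031 on the plus strand of chromosome 11, inside KIAA1731 on the same strand, so fragments of these 2 genes cannot be told apart here and both values are uncertain where they overlap.

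Among gene groups, mRNAs of ribosomal proteins held many depleted members. Of 85 mRNAs for cytosolic ribosomal proteins, 36 were depleted and none enriched. The shares were 1.59 and 0.962% over all mRNA genes and 5.26 and 1.05% over all genes. The median of the 85 was -0.83, which remained at -0.58 after centring. Against the other fRIPs 3 of the 85 were lower, with a median of -0.22. RPL39 had 61.1 and 71 FPKM in the STAG2 libraries and 318, 309 and 296 FPKM in input set 1 and a log2 fold change of -2.21 (SE 0.29, limma adjusted p = 1.59e-07). RPL38 had 158 and 148 FPKM in the STAG2 libraries and 609.5, 620.2 and 643 FPKM in input set 1, RPLP2 208 and 221 FPKM in the STAG2 libraries and 813, 849 and 849 FPKM in input set 1 and RPS28 29.1 and 22.2 FPKM in the STAG2 libraries and 108, 97 and 96.4 FPKM in input set 1. In each of these 4 genes both STAG2 libraries lay well below every input of set 1, and the highest mean among the other fRIPs was in PABP, which binds poly(A) tails. Of 97 nuclear genes of the respiratory chain, 8 were depleted and 1 enriched, with a median of -0.20. Over all mRNA genes 1.59% were depleted and 0.962% enriched, with a median of 0.06, beside 5.26% and 1.05% over all genes tested. NDUFA3, a subunit of complex I, had 4.54 and 2.63 FPKM in the STAG2 libraries and 29, 22.3 and 26 FPKM in input set 1 and a log2 fold change of -2.57 (SE 0.33, limma adjusted p = 8.16e-08). Of other short mRNAs, the calcium-binding protein gene S100P had 3.85 and 10.9 FPKM in the STAG2 libraries and 62.3, 49.9 and 58.2 FPKM in input set 1, and APOC1, an apolipoprotein gene, had 12.5 and 11.6 FPKM in the STAG2 libraries and 107, 51.6 and 54.6 FPKM in input set 1. Both were depleted without overlap, with log2 fold changes of -2.92 (SE 0.65, limma adjusted p = 0.00113) and -2.39 (SE 0.49, limma adjusted p = 3.94e-04), and S100P missed the threshold without STAG2 replicate 1, at -2.27 (limma adjusted p = 0.056). FTH1, the ferritin heavy chain of iron storage, had 78.4 and 58.3 FPKM in the STAG2 libraries and 154, 201 and 203 FPKM in input set 1 and a log2 fold change of -1.44 (SE 0.27, limma adjusted p = 1.12e-04).

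Transcript length moved with this depletion. Among 8956 mRNA genes at 5 FPKM or more with a weighted transcript length, those under 750 bases had medians of -0.30 and -0.33 in the 2 STAG2 libraries and 13.4% were depleted. At 1500 to 2000 bases the medians were 0.13 and 0.23 and 0.882% were depleted, and at 6000 bases or more they were -0.13 and 0.01 with 1.57% depleted. Of 84 ribosomal protein mRNAs with a length, 58 were under 750 bases, and 33 of these were depleted, with a median of -1.05. The other 441 mRNA genes of that length had 34 depleted and a median of -0.23. Over all 8956 genes the Spearman correlation of the log2 fold change with length was -0.07 in replicate 1 and 0.01 in the second library, a description across genes that share their libraries. The lowest medians were in the shortest bin in both libraries, and the part of length in the depletion of single groups was not tested. Among long mRNAs, the proliferation marker MKI67 had 16.3 and 19 FPKM in the STAG2 libraries and 43.5, 34.4 and 36.9 FPKM in input set 1. It was depleted over input set 1, at -1.07 (SE 0.18, limma adjusted p = 1.68e-05), but short of 2-fold over all 9 inputs, at -0.65, after centring, at -0.82 (limma adjusted p = 0.00212), without STAG2 replicate 1, at -0.97 (limma adjusted p = 0.00236), and without replicate 1 of input set 1, at -0.98 (limma adjusted p = 4.31e-04).

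**Figure D3:**
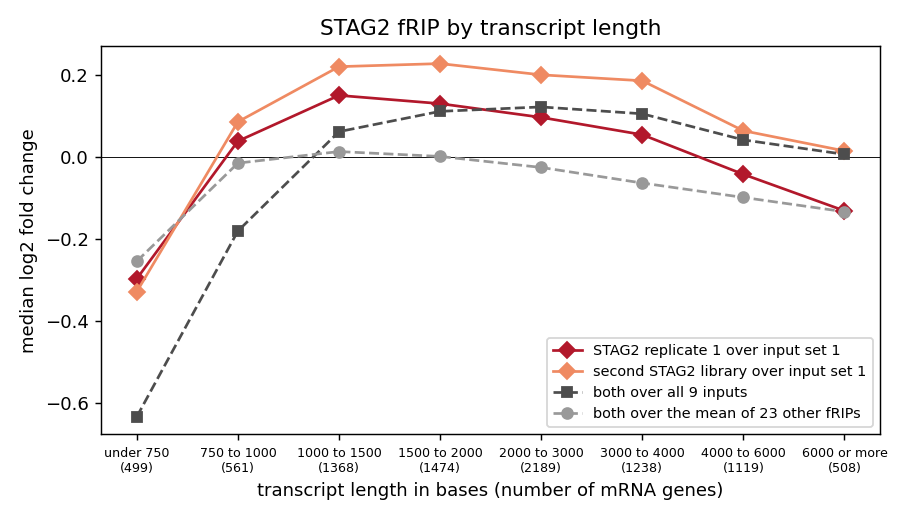
Median log2 fold change of mRNA genes by transcript length in bases, with solid lines for each STAG2 library over input set 1 and dashed lines for both libraries over all 9 inputs and over the mean of the other 23 fRIPs. Genes under 750 bases lie lowest in every line, at -0.30 and -0.33 for the 2 libraries over input set 1.

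STAG2 fRIP was next compared with the mean of the other 23 fRIPs, which 220 genes exceeded (0.865%) and 424 fell short of (1.67%). Of 28 mitochondrially encoded genes tested, 8 were depleted against input and none enriched, beside 5.26 and 1.05% of all genes, with a median of -1.14. Against the other fRIPs 1 of the 28 was higher and none lower, with a median of 0.53. The cytochrome oxidase gene MT-CO3 had 798 and 767 FPKM in the STAG2 libraries and 1889.8, 1685 and 1679.7 FPKM in input set 1, a log2 fold change of -1.16 (SE 0.27, limma adjusted p = 0.00161) over input and 0.79 over the other fRIPs. MT-CO2 had 293 and 271 FPKM in the STAG2 libraries and 453, 408 and 405 FPKM in input set 1, at -0.58 over input (limma adjusted p = 0.108) and 1.00 over the other fRIPs. MT-CO3 was short of 2-fold after centring, at -0.91 (limma adjusted p = 0.00761), and over input set 3, at -0.95 (limma adjusted p = 0.0154), and MT-CO2 did not pass over input set 1.

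RN7SL1, the RNA of the signal recognition particle, had 174 and 179 FPKM in the STAG2 libraries and 203, 147 and 163 FPKM in input set 1. The groups overlapped, the log2 fold change over input was 0.06 (SE 0.34, limma adjusted p = 0.941), and that over the other fRIPs was 2.14. RPPH1, the RNA of ribonuclease P, had 1415 and 1164 FPKM in the STAG2 libraries and 1602, 1317 and 1347 FPKM in input set 1, at -0.14 over input and 1.71 over the other fRIPs. RMRP, the related RNA of ribonuclease MRP, was higher in both comparisons, with 3693 and 3597 FPKM in the STAG2 libraries and 1802, 1794 and 1823 FPKM in input set 1, at 1.01 (SE 0.20, limma adjusted p = 2.56e-04) over input set 1, 0.79 over all 9 inputs and 1.66 over the other fRIPs. It was at 0.99 over input set 1 without STAG2 replicate 1 and at 0.82 (limma adjusted p = 0.00477) over input set 3. RMRP missed the p threshold over input set 2, at 0.55 (limma adjusted p = 0.0708), and with only the 5 libraries in the fit (limma adjusted p = 0.0622). Of 18 lncRNAs tested from a list drawn up as nuclear, 1 was enriched and 2 were depleted, with a median of -0.45. Where these RNAs lie in the cell was not measured here. These counts stand beside 38 enriched and 445 depleted of 5245 lncRNA genes and a median of -0.23. The enriched one was H19, for which HNRNPH1 fRIP had a mean of 81.4 FPKM, above both STAG2 libraries. MEG3, an imprinted lncRNA, was among the depleted, with 1.83 and 1.6 FPKM in the STAG2 libraries and 5.45, 3.91 and 4.08 FPKM in input set 1. Its change was just past 2-fold (limma adjusted p = 0.0426). That call was lost over all 9 inputs, at -0.47, and without any 1 of the 5 libraries, at -1.06 (limma adjusted p = 0.107) and -0.94 (limma adjusted p = 0.19) without STAG2 replicate 1 and the second STAG2 library and -0.88 (limma adjusted p = 0.142), -1.08 (limma adjusted p = 0.0588) and -1.05 (limma adjusted p = 0.0663) without replicates 1, 2 and 3 of input set 1. NEAT1 of the paraspeckle had 80.6 and 82.8 FPKM in the STAG2 libraries and 115, 127 and 127 FPKM in input set 1 and MALAT1 of the nuclear speckle 2903 and 3256 FPKM in the STAG2 libraries and 5083, 5471 and 5547 FPKM in input set 1. Both lay below every input of set 1 in both libraries, but neither passed, with log2 fold changes of -0.58 (SE 0.29, limma adjusted p = 0.166) and -0.80 (SE 1.47, limma adjusted p = 0.767). RNU12, the U12 RNA of the minor spliceosome, was enriched at 1.35 (SE 0.35, limma adjusted p = 0.00565), but not over input set 2, at 0.63 (limma adjusted p = 0.296).

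Isoforms were tested in the same way. Of 185661 isoforms, 104506 passed the filter, and 1640 (1.57%) were enriched, 1440 of them without overlap, while 3473 (3.32%) were depleted, 3415 without overlap. Across all isoforms tested with a mean of at least 2 FPKM in input set 1, the median log2 fold changes were -0.03 for coding isoforms, -0.16 for those marked for nonsense-mediated decay, -0.31 for those with a retained intron and -0.37 for those with no coding sequence defined.

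Isoforms of single genes are given as a description, since the genes were chosen as enriched. The main coding isoform of IMMT, ENST00000449247, had 419.5 and 259 FPKM in the STAG2 libraries and 32.8, 28.4 and 24.4 FPKM in input set 1 and a log2 fold change of 3.50 (SE 0.26, limma adjusted p = 1.46e-15). Its retained intron isoform ENST00000460081 had 3.14 and 3.56 FPKM in the STAG2 libraries and 2.01, 2.62 and 4.01 FPKM in input set 1 and a log2 fold change of 0.20 (SE 0.47, limma adjusted p = 0.896). In WRN, the helicase lost in Werner syndrome, the coding isoform ENST00000298139 had 404 and 433 FPKM in the STAG2 libraries and 22.2, 29.3 and 28.5 FPKM in input set 1 and a log2 fold change of 3.93 (SE 0.20, limma adjusted p = 5.99e-22). Its retained intron isoform ENST00000520169 did not pass, with 2.36 and 8.47 FPKM in the STAG2 libraries and 4.73, 7.02 and 10.7 FPKM in input set 1 and a log2 fold change of -0.53 (SE 0.35, limma adjusted p = 0.412). In CEP350, the retained intron isoform ENST00000357434 had 48.4 and 44 FPKM in the STAG2 libraries and 11.1, 7.11 and 10.8 FPKM in input set 1 and was enriched at 2.16 (SE 0.42, limma adjusted p = 3.99e-04), beside 2.81 (SE 0.14, limma adjusted p = 4.85e-23) for the coding isoform ENST00000367607.

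Estimated changes of single isoforms in other genes were as follows. In LPIN1, below the limit as a gene, the coding isoform ENST00000256720 had 47.3 and 47.9 FPKM in the STAG2 libraries and 14.7, 12.2 and 12.9 FPKM in input set 1 and was enriched at 1.77 (SE 0.17, limma adjusted p = 3.47e-11). In CSPP1, the coding isoform ENST00000262210 had 82 and 58.3 FPKM in the STAG2 libraries and 4.19, 4.74 and 4.31 FPKM in input set 1, at 3.70 (SE 0.28, limma adjusted p = 2.76e-15), and the coding isoform ENST00000519668 had 2.52 and 6.74 FPKM in the STAG2 libraries and 2.7, 3.21 and 3.66 FPKM in input set 1, at 0.32 (SE 0.29, limma adjusted p = 0.582). Another CSPP1 isoform, ENST00000521919, marked for nonsense-mediated decay, was enriched at 2.60 (SE 0.47, limma adjusted p = 1.52e-04). The main coding isoform of RAD21, ENST00000297338, passed the 2-fold limit at 1.05 (SE 0.20, limma adjusted p = 3.80e-04), beside 0.99 for the gene. In STAG2 itself, the coding isoform ENST00000371157 had 5766 and 4429 FPKM in the STAG2 libraries and 45, 59.1 and 56.7 FPKM in input set 1, with a log2 fold change of 6.54 (SE 0.19, limma adjusted p = 1.51e-34). The much shorter coding isoform ENST00000428941 was enriched as well, with 494 and 492 FPKM in the STAG2 libraries and 4.49, 3.39 and 5.46 FPKM in input set 1, at 6.52 (SE 0.58, limma adjusted p = 2.79e-12). Another short coding isoform, ENST00000394478, was not, with 1.71 and 1.93 FPKM in the STAG2 libraries and 3.19, 1.31 and 1.82 FPKM in input set 1, at -0.10 (SE 0.43, limma adjusted p = 0.971). Isoform values are estimates from shared exons, and the reads behind a single isoform were not analysed here.

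In the 46 enriched genes with overlapping groups, no more than 1 STAG2 library lay above all inputs of set 1. PCSK5, a proprotein convertase, had 42.4 and 0.573 FPKM in the STAG2 libraries and 0.826, 1 and 0.912 FPKM in input set 1. It was thus called on replicate 1, with the second library below every input. The pseudogene AC108938.3 was at 51.2 FPKM in replicate 1 and at 0 in the second library, while RP11-100G15.2 was at 0 in replicate 1 and at 31.3 FPKM in the second. Both were listed at 0 in input set 1. PCSK5 had a log2 fold change of -0.28 (limma adjusted p = 0.716) without STAG2 replicate 1, and RP11-100G15.2 was also lost without replicate 1 of input set 1, at 2.51 (limma adjusted p = 0.0538). An exact permutation test of 2 against 3 libraries cannot give a two-sided p under 0.1, so the calls above rest on the spread that limma pooled over all 79 libraries.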

How the data were processed

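Processed values of the 79 libraries were taken as deposited. Per the labels and the study's methods, the authors removed ribosomal RNA with a Ribo-Zero Gold kit, sequenced paired reads (base calling with CASAVA 1.4), aligned them to hg19 with TopHat and quantified GENCODE 18 genes and isoforms with Cuffdiff and Cuffnorm, which gave the deposited FPKM per library. The strand setting of the counting is not given in the sources used here. Of the authors' table of comparisons, which also holds their fold changes and tests, only the FPKM of input beside STAG2 was used, to find the nearest input set. Each column of values was matched to a sample or group, and 0 were left out.

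Values were log2(FPKM + 1). The filter asked for 1 FPKM or more in 2 or more libraries. All 79 libraries entered a single limma 3.58.1 fit (R 4.3.3, trend on mean level) with each fRIP and each input set as a group and no replicate block. Benjamini-Hochberg adjustment ran over all genes tested, and a call was a change over 2-fold at an adjusted p under 0.05. A fold change on this scale understates the change of low genes. Tested on simulated data for STAG2 against input set 1 with 25442 genes, the fit recovered 84% of genes changed by 1.5 and 98% of those changed by 2.5 on the log2 scale, with 8 other genes called. The simulated noise was normal, with the spread of each gene pooled over all 79 libraries. The real log2 difference between the 2 STAG2 libraries had an SD of 0.742 across genes. Between replicates 1 and 2 of input set 1 it was 0.472, so these rates may not hold for the STAG2 pair. Classes, coordinates, lengths and sequences came from GENCODE 44 lifted to GRCh37, which held 46055 of 48453 genes. Depth was read from FPKM steps and covers counting precision only.

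Members and lists were chosen with earlier results of these data known. Lists were fixed by symbol or symbol pattern, limited to mRNA genes for ribosomal, respiratory chain, proteasome, translation, SR and hnRNP and chaperone genes. Named genes are the cohesin list, the 30 most enriched and 25 most depleted mRNA or lncRNA genes of 2- to 10-fold without overlap, up to 4 members of each list, the 5 called genes with the largest difference between the STAG2 libraries, the 10 farthest from the other fRIPs, and the isoforms of these genes. AZI1, USP33, XPO5, WDR74, LPIN1, LPIN3, THOC2, XIAP, NEK2, CEP290, NIN, CDK5RAP2, POC1B, ASPM, STIL, GCC1, GOLGA2, GOLGA4, BLM, RECQL, RPS28, MT-CO2, MT-CO3, RN7SL1, RPPH1, NEAT1, MALAT1, MTRNR2L3 and MTRNR2L8 were named after their values were seen. One gene is not reported here. Alternatives covered inputs, pseudocounts, filters, centring, fewer libraries in the fit and a replicate block.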

Additional observations from a re-analysis of the deposited data

How the results depend on the processing

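The counts of genes called moved with the processing more than the named genes did. Enriched genes (268 as reported) numbered 433 with a pseudocount of 0.5 FPKM, 106 with a mean of at least 5 FPKM over the 5 libraries, 907 after centring each library on its median, 123 with only the 5 libraries in the fit, and 224 to 715 with each library left out (497 without STAG2 replicate 1, 715 without the second STAG2 library). Depleted genes (1338) numbered 856 against all 9 inputs, 746 against input set 2, 702 against input set 3, 2192 with a pseudocount of 0.1 FPKM, 419 with the mean of at least 5 FPKM, 749 after centring, 748 with only the 5 libraries, and 1075 to 1464 with each library left out. Of the genes called at 2- to 10-fold with no overlap, the enriched (214) numbered 90 with the mean of at least 5 FPKM, 851 after centring, 115 with only the 5 libraries and 178 to 694 with each library left out (483 without STAG2 replicate 1), and the depleted (1302) numbered 713 against all 9 inputs, 730 against set 2, 687 against set 3, 397 with the mean of at least 5 FPKM, 730 after centring, 728 with only the 5 libraries and 1056 to 1445 with each library left out. Genes higher than the mean of the other fRIPs (220) numbered 573 and 449 with pseudocounts of 0.1 and 0.5 FPKM and 418 to 792 without either STAG2 library, and genes lower (424) numbered 1145, 747 and 399 to 698. Enriched isoforms (1640) numbered 1074 with a pseudocount of 0.1 FPKM, 4347 after centring and 1039 to 3487 with each library left out, and depleted isoforms (3473) numbered 5958, 1628 and 2277 to 4102. The causes were not tested.

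A fit with the replicate block gave 274 enriched and 1400 depleted genes with the second STAG2 library as number 3, and 304 and 1421 with it as number 2. The numbers share at most 2 pairs, deviations of STAG2 replicate 1 and input replicate 1 correlated at 0.046, and the pairing was not used. Of 83 genes named in the text, the block moved MEG3 (-0.95) short of 2-fold and no other called gene below the threshold.

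Over 1398 comparisons of these genes with an alternative, 1257 kept their direction and their side of the threshold, 85 kept the direction and lost the call, 31 gained a call and 25 changed sign. Signs changed against all 9 inputs for HIST1H4B (-0.17), HIST1H2BL (-0.30), RN7SL1 (-0.19) and XIAP (0.025). They changed against set 2 for HIST1H4B (-0.70), HIST1H2BL (-0.99), HIST1H2AB (-0.055), RN7SL1 (-0.31), NEAT1 (0.25) and XIAP (0.17), and against set 3 for HIST1H4B (-0.94), HIST1H2BL (-1.12, limma adjusted p = 0.0475), HIST1H2AB (-0.49), RN7SL1 (-0.33) and GOLGA4 (0.014). Centring changed the sign of XIAP (0.19), BLM (0.022) and RPPH1 (0.11). With each library left out, PCSK5 ranged from -0.28 to 4.50, AC108938.3 from 0 to 5.71 and RP11-100G15.2 from 0 to 5.01, all lost without the 1 STAG2 library that held their signal, and uncalled genes ranged from -0.14 to 0.014 (XIAP), -0.061 to 0.29 (THOC2), -0.50 to 0.046 (BLM) and -0.042 to 0.19 (RN7SL1). At 8.96 and 9.80 M (mega) fragments, values under 1 FPKM in the STAG2 libraries rest on few fragments and are the least certain.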

Other observations

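Counts in other gene families are given beside the 1.05% of all genes tested that were enriched and the 5.26% that were depleted. Of 153 coiled-coil domain genes in the table, 120 were tested, 2 were enriched and 1 depleted, with a median of 0.10. Of 441 antisense lncRNA genes tested, 4 were enriched and 20 depleted, with a median of -0.23, and of 149 intergenic lncRNA genes none was enriched and 9 were depleted, with a median of -0.14. Of 15 host genes of small nucleolar RNAs none was called, with a median of 0.10. Of 33 long coding genes tested, none was enriched and 2 were depleted, with a median of -0.28.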
